A study of Mus musculus with 6 samples.

Results

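The expression of 33 marker genes of amacrine and horizontal cells was compared between OIR-CIH and OIR-Norm retinas at PN18. The genes were taken by name from a list of 33, all 33 were found in the count table by gene identifier, and all 33 reached the minimum of 10 reads summed over the 6 libraries, as did 20021 of the 32285 genes in all. In the oxygen-induced retinopathy (OIR) model, wild-type C57BL/6J pups of both groups spent PN8 to PN13 with their mothers in 75% O2, under which capillaries of the central retina are lost. OIR-CIH pups then underwent chronic intermittent hypoxia (CIH) for 10 h of each day in 266 cycles with a low point of 5% O2, and OIR-Norm pups received the same gas flow at a constant O2 of 20.95%, each until PN18 and with 3 libraries per group. Retinas that never saw hyperoxia are not analysed here, so that the values compare CIH with normoxia after OIR and not with a healthy retina.

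Amacrine and horizontal cells are the inhibitory interneurons of the retina. Horizontal cells feed back onto photoreceptor terminals in the outer plexiform layer, while amacrine cells, the most diverse class of retinal neuron, shape the signals that bipolar cells pass to ganglion cells in the inner plexiform layer. Both arise from progenitors that express Ptf1a, both keep transcription factors of the AP-2 family, and amacrine types are then told apart by their transmitters, neuropeptides and calcium-binding proteins. Several of the genes are also used by other retinal cells, as Sox2 by Müller glia and Calb2, Pvalb and Ebf3 by ganglion cells, so that a bulk value is not the value of one cell type. In bulk retina, fewer cells of a type and less RNA per cell cannot be told apart.

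The total count per library was between 26289905 and 38010151, and OIR-CIH replicate 3 was the deepest. CPM are the usual depth-normalised read counts, with library sizes scaled by edgeR's trimmed mean (TMM). The tissue carried the markers of retina, with 10 bipolar cell genes summing to between 1536 and 1792 CPM in all 6 libraries. Summed over 6 lens genes, OIR-Norm replicate 2 had 476 CPM against 14.1 to 79.8 in the other libraries, and over 6 pigment epithelium genes OIR-CIH replicate 1 had 341 CPM against 136 to 239. The methods name 3 eyes per group, while Xist and Y-linked RNA were found together in every library. Xist had 994, 1092 and 724 CPM in the OIR-CIH and 298, 1653 and 777 CPM in the OIR-Norm libraries. Y-linked genes summed to 57.3, 111 and 110 CPM in OIR-CIH and 172, 69.7 and 184 CPM in OIR-Norm. Whether a library held RNA of more than 1 animal, and what share came from each sex, was not tested. Here n counts libraries. None of the 63 genes called over the whole table (0.315% of 20021, by an adjusted p under 0.05 from edgeR's quasi-likelihood test and an absolute log2 fold change over 0.5) was among the 33 genes. At an unadjusted p under 0.05 edgeR counted 5 of the 33 (15.2%), beside 13.2% of all genes. Leaving out 1 library moved this count to between 3 and 9, the highest without OIR-CIH replicate 1, where it was 9 of 32 beside 1637 of 19773 genes. Tfap2a, Tfap2c, Lhx1 and Gjd2 were the 4 of them higher in OIR-CIH and Slc17a8 the 1 lower, beside 6.20% and 7.01% of all genes. None had an adjusted p under 0.05 at any fold change in edgeR, where 0.390% of all genes did. DESeq2 and limma called 0 of the 33 as well, with 6 and 7 of them at an unadjusted p under 0.05, beside 2213 and 2622 of the 20021 genes. Among the 33, the lowest p of a gene higher in OIR-CIH was that of Lhx1, and of a gene lower in OIR-CIH that of Slc17a8. Their promoter windows, from 250 bases before to 50 after the transcription start as given by RefSeq for GRCm38.p6, are shown for that reason. The Lhx1 window is on the minus strand at chr11:84525485-84525784 and the upstream one of 2 listed for Slc17a8 is on the minus strand at chr10:89621200-89621499.
Lhx1: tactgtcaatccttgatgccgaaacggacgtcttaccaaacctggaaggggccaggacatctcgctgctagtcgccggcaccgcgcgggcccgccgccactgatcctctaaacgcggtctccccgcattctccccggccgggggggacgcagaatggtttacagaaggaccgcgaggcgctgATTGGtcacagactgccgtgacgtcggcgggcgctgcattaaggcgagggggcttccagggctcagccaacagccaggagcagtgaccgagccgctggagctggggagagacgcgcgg
Slc17a8: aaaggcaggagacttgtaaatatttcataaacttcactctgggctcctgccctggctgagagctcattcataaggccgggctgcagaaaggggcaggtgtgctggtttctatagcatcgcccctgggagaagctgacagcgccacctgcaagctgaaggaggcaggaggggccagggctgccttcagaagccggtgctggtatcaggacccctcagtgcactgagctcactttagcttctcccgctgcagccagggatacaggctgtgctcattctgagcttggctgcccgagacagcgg
Capitals mark the CCAAT box of the Lhx1 window, read on the opposite strand. The windows were searched on both strands for the AP-2 motif GCCNNNGGC, the ONECUT cores ATCGAT and ATTGAT, the hypoxia response cores ACGTG and GCGTG, and CCAAT, no match of which overlapped a match of another motif in these windows. Only the CCAAT box was found, 1 time in Lhx1 and 0 times in Slc17a8. Over the 31 windows of the 25 genes with an entry, the AP-2 motif was in 19.4%, the ONECUT cores in 12.9%, the hypoxia cores in 51.6% and CCAAT in 35.5%, against 16.6%, 8.4%, 43.8% and 37.4% of all 32851 windows. Tfap2c, Megf10, Megf11, Onecut2, Onecut3, Calb1, Calb2 and Penk had no entry.

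Levels spanned a wide range. Per kb of exon in GENCODE M21, the scale on which genes can be set beside each other, Calb2 (calretinin, a calcium-binding protein of many amacrine and ganglion cells) had the highest level, at 160 CPM per kb in the mean of OIR-CIH and 158 in the mean of OIR-Norm. Gjd2, which encodes the connexin of AII amacrine cells and photoreceptors, followed at 51.7 and 46.4, then Npy at 36.1 and 31.0 and Tfap2b at 30.6 and 26.8. At the lower end were Onecut2 with 0.569 and 0.599 and Neurod6 with 0.626 and 0.489 CPM per kb. Ptf1a, which commits progenitors to the amacrine and horizontal lineage and is silent in mature cells, had 2, 4 and 1 reads in the OIR-CIH and 0, 2 and 2 reads in the OIR-Norm libraries, and no fold change is given for it. Because it shares 40.4% of its exon length with the antisense gene Ptf1aos, and the strand setting of the counting is not known, even these reads are uncertain.

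**Figure D1:**
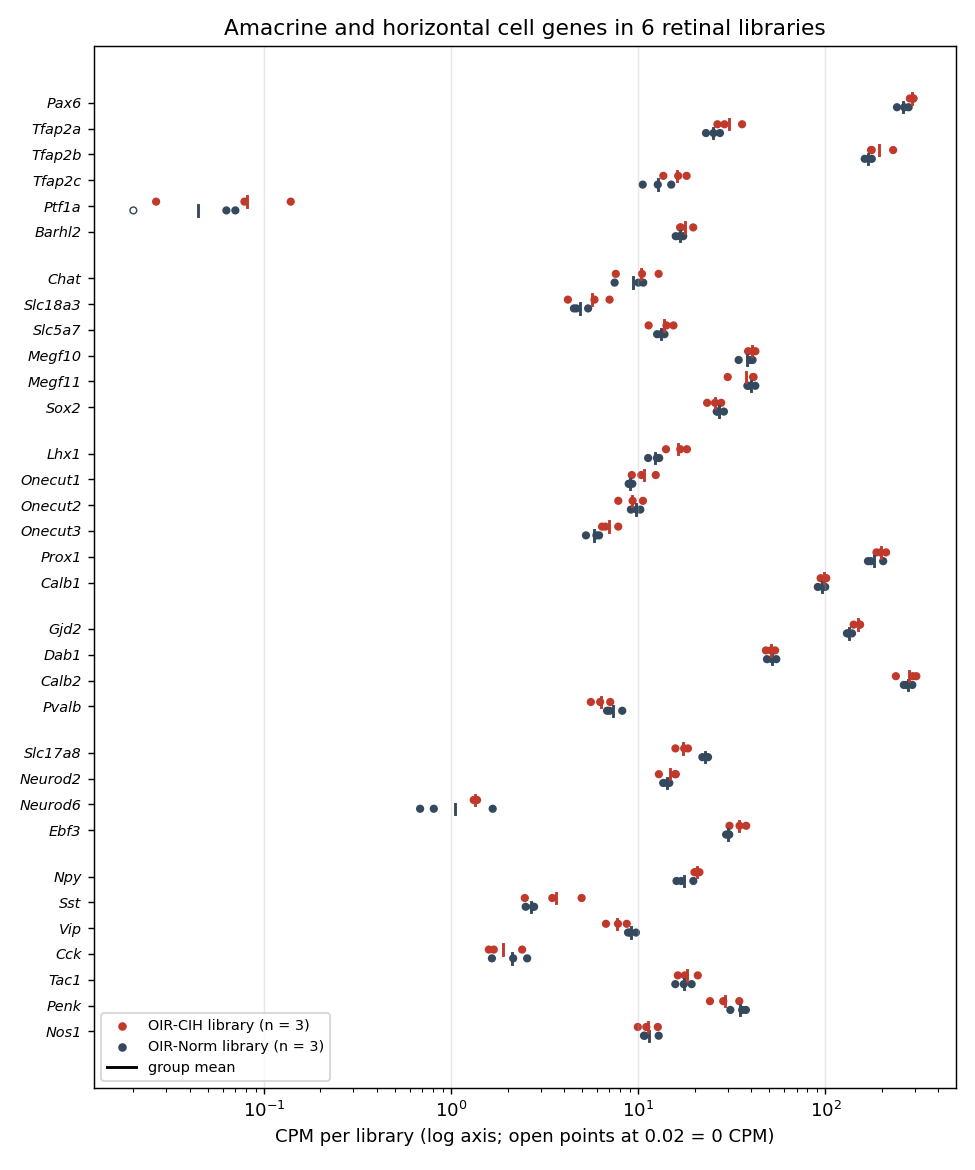
CPM (horizontal log axis) of the 33 genes, by role from top to bottom, in 3 OIR-CIH (red) and 3 OIR-Norm (dark) libraries, with each point 1 library and each bar a group mean (the open point of Ptf1a stands for 0 reads). Points of the groups lie close together for nearly all genes, and the 3 OIR-CIH points lie below the 3 OIR-Norm points for Slc17a8 and above them for Lhx1.

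Of the 33 genes, 23 had a log2 fold change (OIR-CIH over OIR-Norm) above 0 and 10 below it, with a median of 0.10, where all genes had a median of -0.0028 and 49.5% were above 0. Without Ptf1a, in the fit with edgeR's own filter on low counts, 22 of 32 were above 0 and the median was 0.09. In the main fit 8 of 8 rod, 5 of 6 cone and 6 of 10 bipolar cell genes were also above 0. So were 6 of 10 ganglion cell and 5 of 8 Müller glia genes. The medians of these lists, in that order, were 0.14, 0.16, 0.04, 0.0040 and 0.06. Microglia had 1 of 8 above 0, endothelial cells 0 of 6 and reactive glia 0 of 7. Pigment epithelium had 3 of 6 and lens 0 of 6. Differences between lists were not tested. The groups did not overlap for 8 of the 33 (24.2%), 6 higher and 2 lower in OIR-CIH, beside 18.4% of all genes (9.12% higher and 9.26% lower). The 95% interval of the log2 fold change lay within 0.5 of 0 in either direction for 18 of the 33, so that for these a change as large as the minimum for a call was outside the interval of that single gene. Leaving out OIR-CIH replicate 3 brought the median of the 33 genes down to 0.0490, and leaving out OIR-CIH replicate 1 brought it to 0.14.

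**Figure D2:**
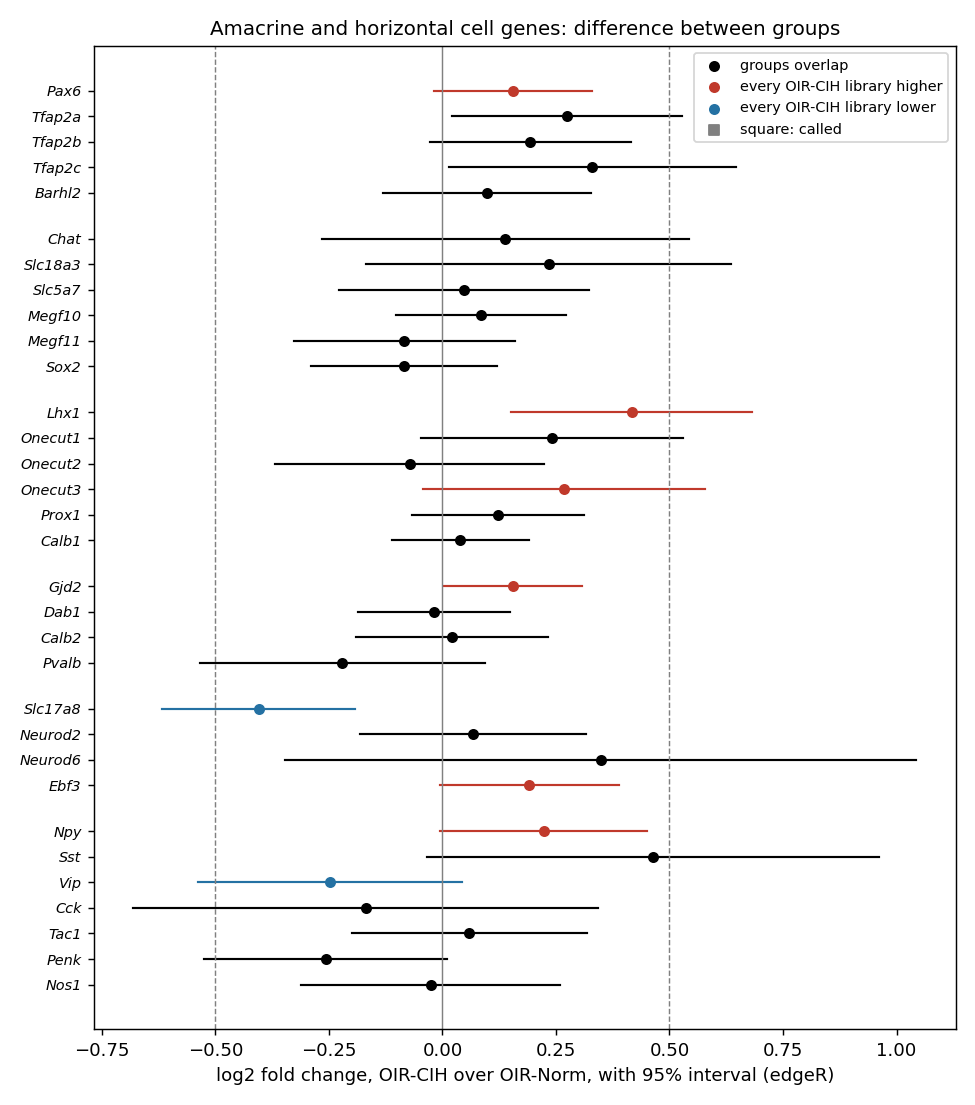
Log2 fold change (OIR-CIH over OIR-Norm) with its 95% interval from edgeR for 32 genes, Ptf1a being left out for its 11 reads, with dashed lines at the minimum of 0.5 for a call. Coloured genes are those whose groups did not overlap, 5 genes, Lhx1 (0.42) and Slc17a8 (-0.40) farthest out, have intervals wholly on 1 side of 0, and no gene is drawn as a square, the sign of a call.

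The transcription factors shared by amacrine and horizontal cells, Ptf1a aside, had somewhat higher means in OIR-CIH, and none passed the test. Pax6 (ENSMUSG00000027168, chromosome 2), the homeobox factor that keeps amacrine and ganglion cell identity, had 295, 282 and 294 CPM in the OIR-CIH and 241, 264 and 278 CPM in the OIR-Norm libraries. Each OIR-CIH library was above each OIR-Norm library, and the difference was 0.16 on the log2 scale (standard error 0.08, adjusted p = 0.432 from edgeR). For Pax6, as for every other gene whose groups did not overlap, p was 0.1 in the exact permutation test (two-sided), the lowest value within reach of 3 against 3 libraries.

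Of the AP-2 factors, which act downstream of Ptf1a in postmitotic amacrine and horizontal cells, Tfap2b was the most abundant, with 175, 177 and 230 CPM in OIR-CIH and 162, 177 and 170 in OIR-Norm. Tfap2a had 28.8, 26.5 and 35.8 CPM in OIR-CIH and 23.0, 27.3 and 25.2 in OIR-Norm. Tfap2c had 16.3, 13.6 and 18.1 CPM in OIR-CIH and 10.5, 12.7 and 15.0 in OIR-Norm. All 3 had their highest value in OIR-CIH replicate 3, and the groups of each overlapped. Log2 fold changes were 0.27, 0.19 and 0.33 for Tfap2a, Tfap2b and Tfap2c, with adjusted p of 0.349, 0.447 and 0.362 from edgeR. Without OIR-CIH replicate 3 the value was 0.13 for Tfap2a and 0.049 for Tfap2b, and without OIR-Norm replicate 1 it was 0.21 for Tfap2c. Barhl2, a homeobox factor needed for amacrine subtypes, was at 17.7 ± 1.64 CPM (SD, n = 3) in OIR-CIH and 16.6 ± 0.766 in OIR-Norm (SD, n = 3), a log2 fold change of 0.10 with a 95% interval from -0.13 to 0.33.

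Starburst amacrine cells are the cholinergic amacrine cells that compute the direction of motion, with somata in the inner nuclear layer and, as displaced cells, in the ganglion cell layer. Their transmitter genes Chat (choline acetyltransferase), Slc18a3 (the vesicular acetylcholine transporter, whose gene lies inside the Chat locus) and Slc5a7 (the choline transporter) did not differ beyond the spread between libraries. Chat had 7.57, 12.8 and 10.5 CPM in OIR-CIH and 7.46, 10.0 and 10.6 in OIR-Norm. Slc18a3 had 4.20, 5.82 and 7.01 CPM in OIR-CIH and 5.39, 4.67 and 4.52 in OIR-Norm. Slc5a7 had 11.3, 15.4 and 14.1 CPM in OIR-CIH and 13.2, 12.6 and 13.8 in OIR-Norm. For the 3 genes OIR-CIH replicate 1 was the lowest OIR-CIH library, and the groups overlapped. The log2 fold changes were 0.14, 0.23 and 0.05, with 95% intervals from -0.27 to 0.54, from -0.17 to 0.64 and from -0.23 to 0.32. Adjusted p from edgeR were 0.794, 0.63 and 0.904.

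The other genes of this group were close to equal. Megf10, a transmembrane protein through which starburst and horizontal cells space themselves, had 40.5 ± 1.84 CPM (SD, n = 3) in OIR-CIH and 38.3 ± 3.44 in OIR-Norm (SD, n = 3). Its relative Megf11 had 37.4 ± 6.42 and 39.7 ± 2.12 CPM (SD, n = 3 each), the wider spread in OIR-CIH coming from replicate 1 with 30.0 CPM against 41.0 and 41.3. Sox2, a factor of starburst cells and of Müller glia, had 25.6 ± 2.21 and 27.1 ± 1.35 CPM (SD, n = 3 each). Their log2 fold changes were 0.08, -0.08 and -0.08.

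Among horizontal cell genes Lhx1 had the lowest p. Lhx1 (ENSMUSG00000018698, chromosome 11), the LIM homeobox factor that places horizontal cells in their layer and marks them in the adult, had 14.05, 16.7 and 18.2 CPM in the OIR-CIH and 12.9, 12.6 and 11.3 CPM in the OIR-Norm libraries. Every OIR-CIH library was above every OIR-Norm library, with a mean 1.34 times as high. The log2 fold change was 0.42 (standard error 0.12, 95% interval from 0.15 to 0.68), and the adjusted p from edgeR was 0.217 at rank 444 of 20021 by p. It stayed between 0.33 and 0.51 when each library was left out, the lowest without OIR-CIH replicate 3, with adjusted p from edgeR between 0.21 and 0.413. The adjusted p of the other settings lay between 0.0776 with DESeq2 and 0.245 with a replicate block in edgeR.

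The ONECUT factors, which act with Lhx1 in the genesis of horizontal cells and are also found in ganglion cells, lay on both sides of equality. They were not tested as a family or against each other. Onecut1 had 9.22, 10.4 and 12.4 CPM in OIR-CIH and 9.28, 8.88 and 8.98 in OIR-Norm. Gm20649 shares 52.8% of the exon length of Onecut1 on the same strand but has no row in the count table. Whether that overlap affected the Onecut1 counts was not tested. Onecut3 had 6.40, 6.66 and 7.81 CPM in OIR-CIH and 6.17, 5.96 and 5.25 in OIR-Norm. Onecut2 had 7.81, 10.6 and 9.32 CPM in OIR-CIH and 9.12, 10.2 and 9.80 in OIR-Norm. The groups were apart for Onecut3 alone of these. Log2 fold changes were 0.24, 0.27 and -0.07 for Onecut1, Onecut3 and Onecut2, with adjusted p of 0.473, 0.454 and 0.861 from edgeR.

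Prox1, a homeobox factor of horizontal, AII amacrine and some bipolar cells, had 198 ± 11.8 CPM in OIR-CIH and 182 ± 18.6 in OIR-Norm (SD, n = 3 each). Calb1, which encodes calbindin, the classical marker of mouse horizontal cells, had 98.4 ± 3.68 and 95.8 ± 4.42 CPM (SD, n = 3 each). Its log2 fold change of 0.04 had a 95% interval from -0.11 to 0.19, the narrowest of the 33 genes. Lhx1, with the lowest p of the horizontal cell genes, and the abundant Calb1 thus gave different values, 0.42 and 0.04. That difference between genes was not tested, and neither bulk value need be that of horizontal cells alone.

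AII amacrine cells carry rod signals into the cone pathway through glycine and gap junctions. Gjd2 had 141, 152 and 153 CPM in OIR-CIH and 132, 130 and 139 in OIR-Norm. The groups did not overlap, the log2 fold change was 0.16 (standard error 0.07), and the adjusted p was 0.371 from edgeR. Dab1, the reelin adaptor that marks AII cells, had 51.0 ± 2.89 and 51.7 ± 2.96 CPM (SD, n = 3 each), with a log2 fold change of -0.02. Calb2 had 238, 306 and 293 CPM in OIR-CIH and 271, 262 and 291 in OIR-Norm, the lowest of the 6 being OIR-CIH replicate 1, and its log2 fold change was 0.02 (95% interval from -0.19 to 0.23). Pvalb (parvalbumin), a calcium-binding protein of some amacrine and ganglion cells, had 6.30 ± 0.752 and 7.34 ± 0.752 CPM (SD, n = 3 each) with a log2 fold change of -0.22 and an adjusted p of 0.549 from edgeR.

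Slc17a8 (ENSMUSG00000019935, chromosome 10) encodes the vesicular glutamate transporter that marks a small class of amacrine cells releasing glutamate beside glycine, and among the 33 genes its p was the lowest. It had 18.4, 15.8 and 17.6 CPM in the OIR-CIH and 22.0, 22.9 and 23.6 CPM in the OIR-Norm libraries. The groups were apart by more than the range within either, with means of 17.3 ± 1.34 and 22.8 ± 0.8 CPM (SD, n = 3 each), a ratio of 0.756. The log2 fold change was -0.40 (standard error 0.10, 95% interval from -0.62 to -0.19) with an adjusted p of 0.142 from edgeR, rank 178 of 20021 by p. DESeq2 gave the same log2 fold change of -0.40 with an adjusted p of 0.0272, under the threshold of 0.05 but with a change smaller than 0.5, so that the gene was called by neither. Under the other settings of edgeR and with limma its adjusted p was between 0.0561 and 0.16. When each library was left out the log2 fold change stayed between -0.45 and -0.34, with adjusted p from edgeR between 0.153 and 0.305.

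The factors of the non-GABAergic non-glycinergic (nGnG) and glycinergic amacrine types gave no such difference. Neurod2, a basic helix-loop-helix factor of amacrine subtypes, had 14.8 ± 1.68 and 14.1 ± 0.533 CPM (SD, n = 3 each), a log2 fold change of 0.07. Neurod6, which marks nGnG amacrine cells, was sparse, with 35, 38 and 51 reads in OIR-CIH and 21, 23 and 53 in OIR-Norm. At 1.37, 1.32 and 1.35 against 0.682, 0.807 and 1.66 CPM its groups overlapped, and the 95% interval of the log2 fold change of 0.35 ran from -0.35 to 1.04. Without OIR-Norm replicate 3 that log2 fold change was 0.85. Ebf3, a factor of glycinergic amacrine and of ganglion cells, had 30.7, 34.7 and 37.7 CPM in OIR-CIH and 29.4, 30.6 and 30.4 in OIR-Norm. Its groups were apart by a narrow margin, with a log2 fold change of 0.19 and an adjusted p of 0.391 from edgeR.

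Neuropeptides mark some amacrine types, and their values lay on both sides of equality. Npy (neuropeptide Y) had 20.2, 19.9 and 21.2 CPM in OIR-CIH and 19.7, 16.9 and 16.0 in OIR-Norm. Vip (vasoactive intestinal peptide) had 6.71, 8.67 and 7.78 CPM in OIR-CIH and 8.99, 8.80 and 9.71 in OIR-Norm. The groups did not overlap for either peptide, Npy being higher and Vip lower under CIH. Npy had a log2 fold change of 0.22 (adjusted p = 0.387 from edgeR), and Vip one of -0.25 (adjusted p = 0.464 from edgeR). Penk (proenkephalin) had 28.4, 24.1 and 34.6 CPM in OIR-CIH and 35.9, 37.5 and 31.0 in OIR-Norm, overlapping groups with a log2 fold change of -0.26 and an adjusted p of 0.397 from edgeR. The antisense gene A830012C17Rik covers 14.3% of the exon length of Penk.

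Sst (somatostatin) had, Ptf1a aside, the largest fold change of the 33 genes and the widest relative spread in OIR-CIH. It had 2.47, 3.47 and 4.98 CPM in OIR-CIH, from 63, 100 and 188 reads, and 2.499, 2.77 and 2.73 CPM in OIR-Norm. The OIR-CIH libraries ran from below the lowest to above the highest OIR-Norm library, and the log2 fold change of 0.46 had a 95% interval from -0.03 to 0.96. Without OIR-CIH replicate 3 it was 0.16. Cck (cholecystokinin) had 1.89 ± 0.439 and 2.11 ± 0.449 CPM, Tac1 (the substance P precursor) 18.2 ± 2.31 and 17.5 ± 1.75 CPM, and Nos1 (neuronal nitric oxide synthase, which marks a type of wide-field amacrine cell) 11.2 ± 1.4 and 11.5 ± 1.2 CPM (SD, n = 3 each). Their log2 fold changes were -0.17, 0.06 and -0.03, each less than its standard error of 0.24, 0.12 and 0.13.

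OIR-CIH replicate 3 held the highest value of the 6 libraries for 15 of the 33 genes, beside 3384 of all 20021 genes. The lowest value was in OIR-CIH replicate 1 for 10 and in OIR-Norm replicate 1 for 9 of the 33, beside 3969 and 2809 of all genes. OIR-Norm replicate 1 was the lowest for 5 of the 6 shared transcription factors, Ptf1a with 0 reads there being among the 5. It also had the lowest sum over the 33 genes, 1513 CPM against 1562 to 1776. The median deviation of the shared transcription factors, Ptf1a included, from the mean of the 6 libraries was 0.26 (log2 scale) in OIR-CIH replicate 3. It was between -0.18 and 0.05 in the others. For horizontal cell genes it was 0.21 in OIR-CIH replicate 3 and between -0.12 and 0.06 in the others. For starburst genes it was -0.26 in OIR-CIH replicate 1 and between -0.0094 and 0.11 elsewhere. Ganglion cell markers were low in the same library: OIR-CIH replicate 1 had the lowest value for 9 of 10 of them, with a median deviation of -0.25 against -0.0631 to 0.19 and a summed level of 943 CPM against 1060 to 1196. Rod markers had their highest median deviation, 0.17, in that library. What part these differences between libraries have in the results above was not tested. Within OIR-CIH the median coefficient of variation of the 33 genes was 12.7%, and within OIR-Norm 7.04%, beside 10.2% and 11.03% over all genes.

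**Figure D3:**
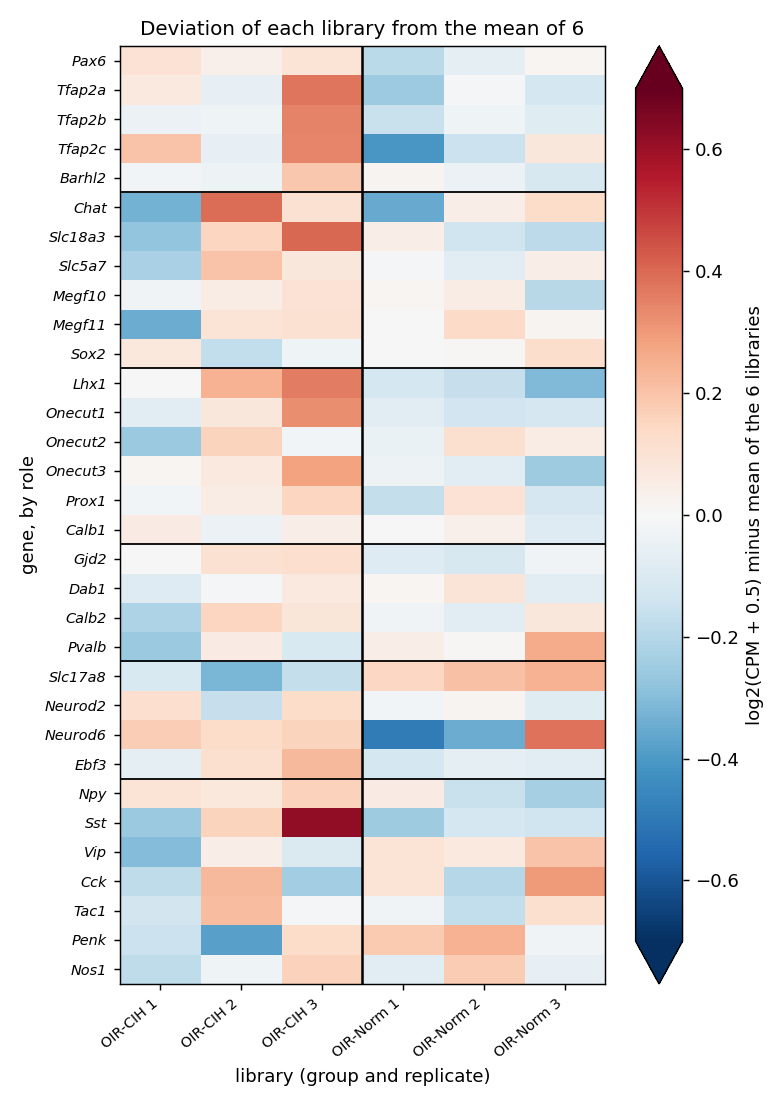
Deviation of log2(CPM + 0.5) from the mean of the 6 libraries for 32 genes (rows, by role) in each library (columns), red above and blue below the mean. OIR-CIH 1 is blue for Chat, Slc18a3, Slc5a7, Megf11 and Calb2, OIR-CIH 3 is red for the AP-2 factors, Lhx1, Onecut1 and Sst, and Slc17a8 is blue in the 3 OIR-CIH columns and red in the 3 OIR-Norm columns.

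**Figure D4:**
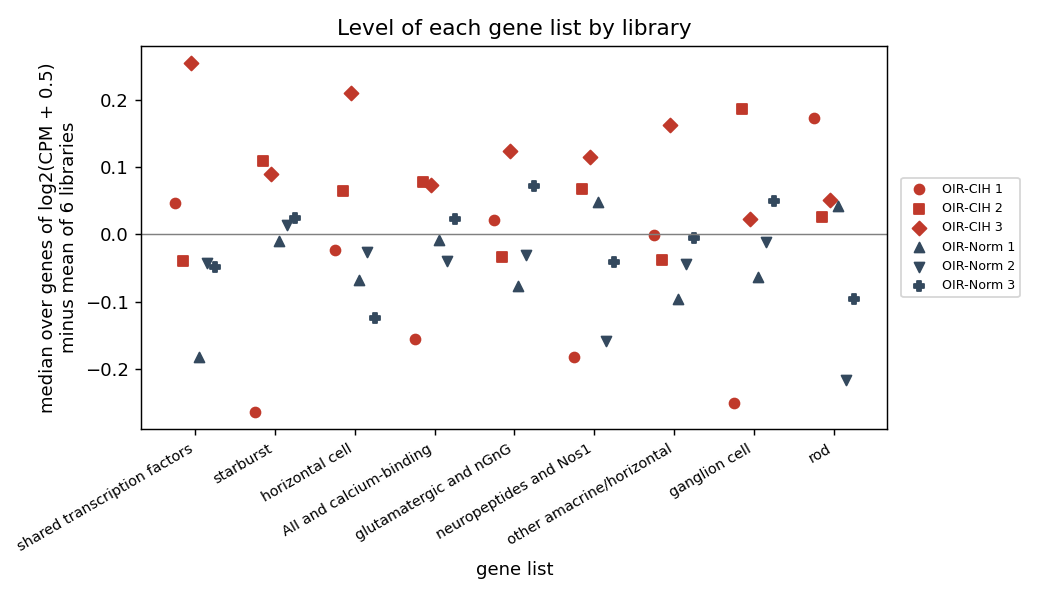
Median over the genes of each list of the log2(CPM + 0.5) deviation from the mean of 6 libraries (vertical axis), with 1 symbol per library, OIR-CIH in red and OIR-Norm in dark. OIR-CIH 1 lies at -0.26 for starburst and -0.25 for ganglion cell genes, and OIR-CIH 3 lies at 0.26 for the shared transcription factors (Ptf1a included).

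A further 34 amacrine and horizontal cell genes, none of them among the 33, were tested in the same fit. This second list was written after the study's list of changed genes had been read, and Prdm13 and Tfap2e are in that list, so that the libraries are not independent evidence for them. Of the 34 genes 23 had a log2 fold change above 0 and 11 below, with a median of 0.05, 9 had an unadjusted p under 0.05 (26.5%, beside 13.2% of all genes), 7 had groups apart (20.6%, beside 18.4%) and 1 was called (beside 0.315%). OIR-CIH replicate 3 held the highest value for 19 of the 34.

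The gene called was Prdm13 (ENSMUSG00000040478, chromosome 4), a zinc-finger factor that acts under Ptf1a in the making of amacrine cells. It had 30.7, 27.5 and 36.0 CPM in the OIR-CIH and 21.1, 19.6 and 22.6 CPM in the OIR-Norm libraries, so that every OIR-CIH library was higher. The log2 fold change was 0.58 (standard error 0.11), and edgeR gave an adjusted p of 0.047, close to the threshold. The call was lost when any of 4 libraries was removed (without OIR-CIH replicate 1 or 3 and without OIR-Norm replicate 1 or 2, with adjusted p of 0.204, 0.18, 0.105 and 0.15 from edgeR), and the other settings gave adjusted p between 0.000418 with DESeq2 and 0.0522 with edgeR's own filter on low counts.

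Tfap2e, a further AP-2 factor, had 4.59, 3.88 and 5.03 CPM in OIR-CIH and 2.69, 2.14 and 2.702 in OIR-Norm. The groups were apart, at a log2 fold change of 0.84 (standard error 0.18), and edgeR gave an adjusted p of 0.0764, while DESeq2 called it with 0.0144. The adjusted p was between 0.0122, in edgeR with the minimum lowered to 1 read, and 0.115 with limma, and leaving out 1 library in edgeR gave 0.0804 to 0.305, the highest without OIR-CIH replicate 1. Tfap2d, the remaining member of that family, had 2.67 ± 0.440 and 2.89 ± 0.675 CPM (SD, n = 3 each) and a log2 fold change of -0.11. With Tfap2a, Tfap2b and Tfap2c, 4 of the 5 AP-2 genes were above 0 and 1 below, and with the minimum of 10 reads edgeR called none of them.

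Of the next genes by p, Fezf1 (a zinc-finger factor of starburst cells) had 2.71, 3.16 and 3.49 CPM in OIR-CIH and 2.08, 1.79 and 2.39 in OIR-Norm, with a log2 fold change of 0.58. Bhlhe22, a factor of some amacrine and some bipolar cells, had 60.6 ± 4.73 and 49.9 ± 6.72 CPM, and C1ql1, a secreted synaptic organizer, 84.9 ± 17.1 and 68.0 ± 5.06 CPM (SD, n = 3 each). Nefh, the heavy neurofilament of horizontal and ganglion cells, was the lower one in OIR-CIH with 85.5, 92.0 and 100.5 CPM against 104.96, 122 and 103. Its log2 fold change was -0.25, and adjusted p from edgeR were 0.264, 0.284, 0.294 and 0.285 for Fezf1, Bhlhe22, C1ql1 and Nefh. None of these 4 passed the test.

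**Figure D5:**
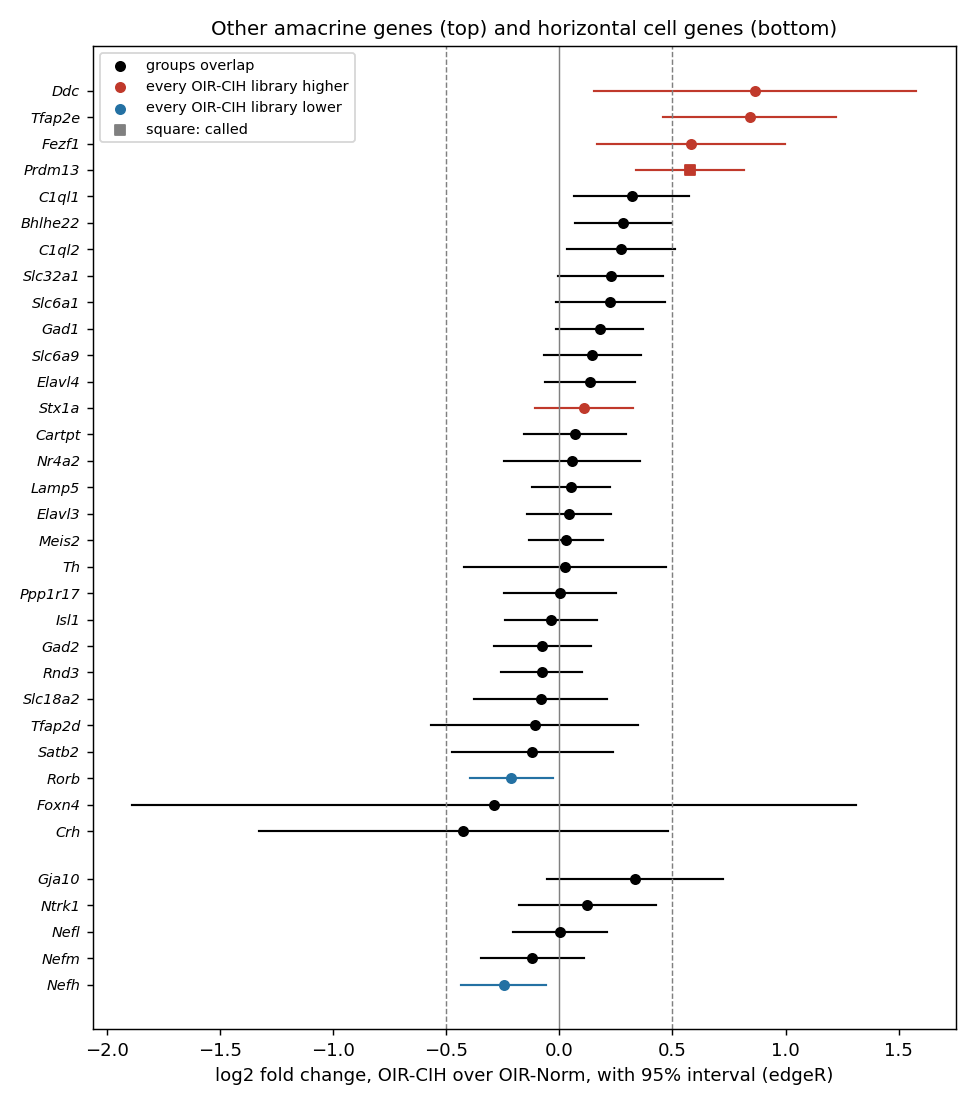
Log2 fold change (OIR-CIH over OIR-Norm) with its 95% interval from edgeR for 29 further amacrine genes (top) and 5 further horizontal cell genes (bottom), ordered by value, with dashed lines at 0.5 in either direction. Prdm13 at 0.58 is the square, the sign of a call, and Tfap2e at 0.84 has an adjusted p of 0.0764.

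Beside these inner retinal genes, 7 of 7 genes of reactive glia were called lower in the same libraries, with log2 fold changes from -2.18 to -0.63, where 0.215% of all genes were called lower. That list was drawn up with these results known, so its count is no independent evidence, and Vim, a glial gene listed with Müller glia, was at -0.12 and not called. The summed level of the 7 genes was 257 to 262 CPM in OIR-CIH and 469 to 544 CPM in OIR-Norm. Of 10 bipolar cell, 10 ganglion cell and 8 Müller glia markers 0 were called by edgeR, with 2 (20%), 1 (10%) and 2 (25%) at an unadjusted p under 0.05, beside 13.2% of all genes. Isl1 of the bipolar cell list and Nefl, Nefm and Nefh of the ganglion cell list were also among the further amacrine and horizontal cell genes. The ganglion cell gene under 0.05 was Nefh. By DESeq2 and limma the bipolar cell, ganglion cell and Müller glia lists were not counted.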

How the data were processed

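RNA of 3 OIR-CIH and 3 OIR-Norm libraries, each made from 250 ng of total RNA with a stranded mRNA kit, was analysed. The authors aligned the reads with STAR 2.7.9a and deposited raw counts per gene without normalization. The paper names Ensembl 105 and the submitters' processing notes GRCm38, so that only chromosomes are given for genes, and the strand column kept is not given in the sources used here. Symbols and exon lengths came from GENCODE M21 by gene identifier (32158 of 32285 matched), and promoter windows from RefSeq.

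A minimum of 10 reads over all libraries was set per gene, and edgeR 4.0.16 (TMM scaling, quasi-likelihood test, R 4.3.3) was run on the rest. Calls needed a Benjamini-Hochberg adjusted p under 0.05 over all genes and an absolute log2 fold change over 0.5. Standard errors and 95% intervals were derived from the F statistic and are not adjusted for the number of genes. DESeq2 1.42.0 and limma 3.58.1 on log2(CPM + 0.5) were alternatives. On counts simulated for this comparison (20021 genes, 200 changed), edgeR gave an adjusted p under 0.05 to 34 of 80 genes changed by 0.4 on the log2 scale, 61 of 80 changed by 0.7 and 40 of 40 changed by 1.2, along with 14 unchanged genes. The changed genes were drawn only from those above a minimum mean count, so these shares do not cover sparse genes. They count the adjusted p alone, without the fold change that a call also needs.

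The members, roles and lists were chosen with earlier results of these data known. Every member is named, and of the further list every called gene, the 5 lowest p among the rest, Tfap2d and Tfap2e. Replicates differed by more than counting noise (chi-square per gene from 11.5 to 23.4). Whether they are separate animals is not stated for each. The p-values set the group difference against the spread between these libraries, which need not be the spread between animals. Counting error limits genes with few reads.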

Additional observations from a re-analysis of the deposited data

How the results depend on the processing

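The count of 0 of the 33 genes called held under DESeq2, limma, median-of-ratios scaling, other filters, a replicate block and each of the 6 fits without 1 library (from 0 to 0). Over all genes 63 were called, against 135 with DESeq2 and 213 with the minimum lowered to 1 read. Leaving out 1 library gave 35 calls (OIR-CIH replicate 1 removed) at the lowest and 104 (OIR-Norm replicate 3 removed) at the highest. The cause was not tested. Of the 34 further genes 1 was called, against 2 with DESeq2 and 2 with the minimum at 1 read (Prdm13 and Tfap2e in each), 0 with edgeR's filter on low counts (Prdm13 at an adjusted p of 0.0522) and from 0 to 1 without 1 library. The median log2 fold change of the 33 genes was between 0.0490 and 0.14 without 1 library, and between 0.0858 and 0.10 under the other settings. The labels do not say whether replicate numbers pair the libraries. Across genes the deviations of same-numbered libraries from their group means correlated at 0.162, 0.143 and -0.238. These values cannot decide it, because deviations within a group are tied to each other and differently numbered libraries were not compared. The replicate block gave 84 calls, with 60 of the 63 kept, with 0 of the 33 and Prdm13 of the 34. Log2 fold changes near 0 changed sign without 1 library in 8 of the 33 genes, running from -0.0513 to 0.12 for Calb2, from -0.0485 to 0.31 for Chat, from -0.0636 to 0.0217 for Dab1, from -0.16 to 0.0471 for Megf11, from -0.13 to 0.0647 for Nos1, from -0.18 to 0.0285 for Onecut2, from -0.0485 to 0.16 for Slc5a7 and from -0.0439 to 0.13 for Tac1. They did so in 12 of the further genes, running from -0.0103 to 0.15 for Cartpt, from -0.0325 to 0.11 for Elavl3, from -0.62 to 0.42 for Foxn4, from -0.21 to 0.000241 for Gad2, from -0.11 to 0.0861 for Isl1, from -0.035 to 0.11 for Lamp5, from -0.0186 to 0.0782 for Meis2, from -0.086 to 0.0693 for Nefl, from -0.0783 to 0.12 for Nr4a2, from -0.0607 to 0.0888 for Ppp1r17, from -0.25 to 0.0932 for Tfap2d and from -0.11 to 0.14 for Th. Of these, Foxn4 was not near 0 in the main fit, at -0.29 with a standard error of 0.74, and had only 22 reads in all. With edgeR's filter on low counts Nefl was at -0.000281 and Ppp1r17 at -0.000239. Ptf1a, with 11 reads in all, had too few to show a difference at this depth.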
